A study of Zea mays with 6 samples.

Results

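In maize, opaque11 (o11) mutants have opaque kernels and carry a defect in a transcription factor with a basic helix-loop-helix domain. The factor acts in the endosperm, the part of the kernel that fills with starch and storage protein. A factor of this family binds DNA as a dimer and can raise or lower the transcription of genes nearby. Loci whose transcripts are lower without the factor include candidates for direct targets and loci further downstream, which expression values alone do not separate. The loci described here were expressed in every wild-type library and at least halved in the mutant. They numbered 50 of the 32666 loci of the files. A locus was taken when it had at least 4 FPKM (sequenced fragments corrected for transcript length and for library size) in all 3 wild-type (WT) libraries and a highest o11 value at most 0.5 of the lowest WT value. Chromosome 4 under 35 Mb and chromosome 7 under 30 Mb were left out by rule, but 0 loci there met both thresholds, so the exclusion removed none. Of the 14000 loci having at least 4 FPKM in all WT libraries, 13532 lay outside these regions, and the 50 loci made up 0.369% of them.

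The WT group consisted of 3 kernel libraries of wild-type plants at 15 days after pollination, and the o11 group of 3 kernel libraries of homozygous o11 mutants at the same age. No further allele, strain or agent was given in the labels. The tissue is kernel in the sample labels and endosperm in the series text, and its defining markers were not checked because the files give loci by position without gene identifiers. The labels do not say whether libraries of a genotype came from separate plants, so the spread between them may be partly technical. A kernel holds several cell types, and in bulk RNA fewer cells of a type and less RNA per cell cannot be told apart.

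How many fragments a value rests on is unknown. Relative depths read from the steps between low values ran from 0.896 to 1.30, with WT replicate 1 set to 1. These depths are rough, as the step used held 422 of 3212 loci in o11 replicate 2 and 676 of 2949 in o11 replicate 1. Summed FPKM ran from 847961 to 1072271 in WT and from 784761 to 1001869 in o11. Transcripts of the plastid and mitochondrial genomes summed to 37.0, 268 and 143 FPKM in WT replicates 1 to 3 and to 35.1, 228 and 54.7 FPKM in o11 replicates 1 to 3, and their part in the results was not tested. The replicate 1 libraries of both genotypes were listed with other alignment tools than replicates 2 and 3, so values are given for each same-numbered pair.

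The choice of the 50 loci rests on the same WT and o11 values that describe them, so their levels and folds are a description without a test. The limma calls of the 50 loci use these values too, so nothing is read from their counts beside the shares of all loci. All 50 were at least halved by rule. Without a term for the replicate number, 33 of the 50 passed an adjusted p of 0.05 as lower in o11 in limma, where 0.273% of all 22314 tested loci did, and with the replicate block all 50 passed, where 9.33% did. With any 1 library left out and no block, 0 to 5 of the 50 passed as lower in limma, where 0% to 0.0224% of tested loci did. In the replicate 2 and 3 libraries alone, with the block, 36 of the 50 passed as lower in limma, where 0.775% of tested loci did, and 0 as higher, where 1.36% did. All o11 values lay below all WT values at 11.7% of tested loci, and at the 50 loci by rule. The median change of the 50 loci was -1.71 on the log2(FPKM + 1) scale, against 0.00 over all tested loci. The reverse rule, with at least 4 FPKM in all o11 libraries and a highest WT value at most 0.5 of the lowest o11 value, took 147 loci, 1.04% of the 14180 with at least 4 FPKM in all o11 libraries.

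In WT, mean levels of the 50 loci ran from 5.67 to 558 FPKM with a median of 19.2, close to the median of 17.9 over all 13532 loci expressed in WT. In o11 they ran from 0.179 to 195 FPKM with a median of 3.59. The 50 loci thus came from the ordinary range of expressed loci rather than from its top. By WT mean, 16 loci were under 10 FPKM, 15 between 10 and 30, 13 between 30 and 100 and 6 above 100. The ratio of the WT mean to the o11 mean ran from 2.14 to 48.3 with a median of 4.07. It was at least 3 for 34 loci, at least 5 for 19 and at least 10 for 5.

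**Figure D1:**
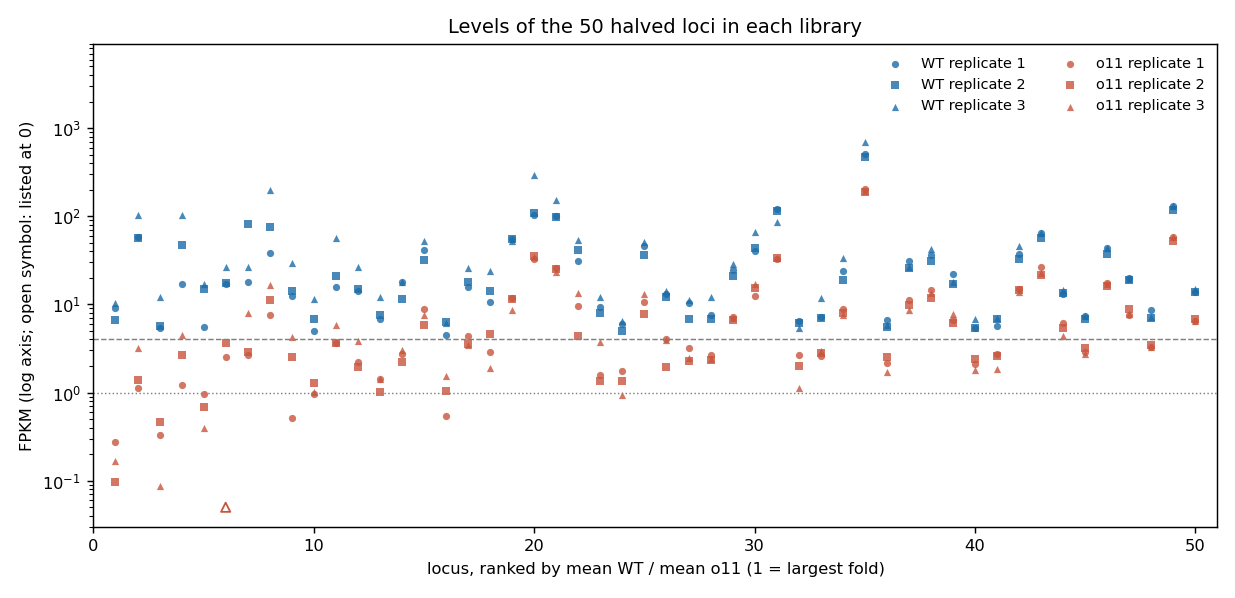
FPKM (log axis) of the 50 halved loci in the 3 WT (blue) and 3 o11 (red) libraries, ordered by the ratio of mean WT to mean o11. The dashed line marks 4 FPKM and the dotted line 1 FPKM. The 3 loci with all o11 points under the dotted line are the ones nearly lost, and the open symbol is a value listed at 0.

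At 3 of the 50 loci the transcript was nearly lost, with all o11 libraries under 1 FPKM. Any of the 13532 loci expressed in WT that falls so low also meets the rule, so no others could exist among them. Coordinates are on B73 RefGen_v3, counted from 1. The first lay on chromosome 8 from 42015205 to 42018417. It stood at 9.02, 6.68 and 10.3 FPKM in WT replicates 1 to 3 and at 0.278, 0.0955 and 0.165 FPKM in o11 replicates 1 to 3. The WT library exceeded its same-numbered o11 library 32.5-fold, 69.9-fold and 62.3-fold. All 3 pairs were thus more than 30-fold apart.

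The second nearly lost locus lay on chromosome 2 from 57736223 to 57738785. WT replicates 1 to 3 had 5.45, 5.67 and 12.2 FPKM, and o11 replicates 1 to 3 had 0.329, 0.465 and 0.0880 FPKM. The pair folds were 16.6, 12.2 and 139. The third pair is extreme because its WT value was the highest and its o11 value the lowest of the genotype. The third locus, on chromosome 10 from 110105805 to 110106399, had 5.61, 15.1 and 17.0 FPKM in WT and 0.957, 0.693 and 0.397 FPKM in o11. Its pair folds of 5.86, 21.7 and 42.8 spread widely too, with WT lowest in replicate 1 and o11 lowest in replicate 3. The interval spans 595 bp, and another locus lies 257 bp away.

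The next locus above the limit of 1 FPKM was on chromosome 1 from 290206796 to 290209672. Its o11 libraries stood at 0.972, 1.30 and 1.02 FPKM against 5.04, 6.90 and 11.5 FPKM in WT. With a limit of 2 FPKM in all o11 libraries 7 loci would count as nearly lost, and with 0.5 FPKM 2 loci. At 8 loci at least 1 o11 library was under 1 FPKM. The 3 nearly lost loci were of modest level in WT, at no more than 17.0 FPKM in any library.

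A large fold at a higher WT level was found on chromosome 1 from 209401525 to 209403939, with 58.5, 55.9 and 102 FPKM in WT and 1.12, 1.39 and 3.16 FPKM in o11. Its pair folds were 52.3, 40.1 and 32.3, so each pair showed a fall of similar size. On chromosome 9 from 106831370 to 106832089, WT libraries stood at 17.3, 47.3 and 103 FPKM and o11 libraries at 1.21, 2.69 and 4.49 FPKM. Both genotypes were lowest in replicate 1 and highest in replicate 3 at this locus, with pair folds of 14.3, 17.6 and 23. These 2 loci and the 3 nearly lost ones were the 5 with a ratio of means above 10.

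Among the 10 loci with the highest ratios, several of short span varied widely between libraries. The locus on chromosome 3 from 201981099 to 201981984 had 38.2, 75.5 and 199 FPKM in WT and 7.65, 11.2 and 16.8 FPKM in o11, with pair folds of 4.99, 6.72 and 11.9. On chromosome 5 from 95019261 to 95019572, a span of 312 bp, WT libraries stood at 17.7, 82.3 and 26.3 FPKM and o11 libraries at 2.70, 2.91 and 8.06 FPKM. Here the replicate 2 pair was 28.3-fold apart and the replicate 3 pair 3.27-fold, so the ratio of means of 9.25 rests largely on WT replicate 2.

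On chromosome 2 from 207829466 to 207829884, WT libraries had 12.6, 14.2 and 29.7 FPKM and o11 libraries 0.521, 2.50 and 4.24 FPKM. Replicate 1 gave its widest pair, 24.2-fold, against 5.67-fold and 7-fold in the others. Also on chromosome 2, the locus from 43628834 to 43629824 stood at 17.1, 17.4 and 26.8 FPKM in WT and at 2.56 and 3.63 FPKM in o11 replicates 1 and 2, and was listed at 0 in o11 replicate 3. A value of 0 in a file of FPKM can be a failed estimate, so no fold is given for that pair. The other pair folds were 6.69 and 4.78. Its ratio of means was 9.91 with the 0 and 5.57 over the libraries of replicates 1 and 2, so its place among the 10 highest ratios rests on that 0.

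The locus with the highest level lay on chromosome 1 from 12162857 to 12167581, at 512, 469 and 693 FPKM in WT and 202, 189 and 193 FPKM in o11. The o11 libraries were close together, and the pair folds were 2.53, 2.49 and 3.58. It held between 24.6% and 27.3% of the FPKM summed over the 50 loci in WT and between 31.8% and 33.6% in o11. With it, the 50 loci summed to 1875, 1908 and 2801 FPKM in WT replicates 1 to 3 and to 602, 569 and 609 FPKM in o11. Without it, the sums were 1362, 1439 and 2108 FPKM in WT and 399, 380 and 415 FPKM in o11. In all 6 libraries the 50 loci were a small part of the transcript pool, 0.201% to 0.261% of summed FPKM in WT and 0.0607% to 0.0767% in o11.

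On chromosome 7 from 157638031 to 157641018 the WT libraries had 103, 108 and 295 FPKM and the o11 libraries 33.0, 35.4 and 34.7 FPKM. The high WT replicate 3 had no counterpart in o11, and its pair fold of 8.51 stood above the 3.13 and 3.05 of the others. The chromosome 3 locus from 212058673 to 212068751 had 101, 98.8 and 152 FPKM in WT and 25.8, 25 and 23.5 FPKM in o11, with pair folds of 3.91, 3.96 and 6.49. Again WT replicate 3 was high and o11 was even. The reverse held on chromosome 5 from 152786009 to 152789855, where WT replicate 3 was the lowest. Its WT libraries had 121, 114 and 86.6 FPKM and its o11 libraries 32.9, 33.2 and 33.5 FPKM.

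The chromosome 1 locus from 191031429 to 191038440 showed an even fall, with 130, 118 and 131 FPKM in WT, 58.6, 53.0 and 58.6 FPKM in o11 and pair folds of 2.22, 2.22 and 2.24. On chromosome 3 from 25862616 to 25867755 WT libraries stood at 63.8, 57.0 and 64 FPKM and o11 libraries at 26.5, 21.5 and 22.5 FPKM. Pair folds were 2.41, 2.65 and 2.85 there. On chromosome 5 from 2284054 to 2290332 the levels were 55.4, 55.2 and 52.6 FPKM in WT and 11.9, 11.4 and 8.64 FPKM in o11, a fall of 4.64-fold, 4.84-fold and 6.09-fold. These 3 loci had little spread within either genotype.

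The other 31 loci, apart from those at the threshold, had WT means from 5.67 to 50.1 FPKM, o11 means from 1.05 to 16.9 FPKM and ratios from 2.41 to 7.04 with a median of 3.58. Just inside the threshold lay 3 loci. On chromosome 1 from 87755145 to 87759703 the highest o11 value was 0.499 of the lowest WT value, with 8.64, 6.97 and 7.18 FPKM in WT and 3.30, 3.47 and 3.26 FPKM in o11. On chromosome 10 from 6663939 to 6668632 it was 0.499, with 13.9, 13.8 and 14.8 FPKM against 6.49, 6.89 and 6.49 FPKM. The even chromosome 1 locus from 191031429 was the third, at 0.498. Just outside lay loci on chromosome 5 from 77973223 to 77978271 (0.504), on chromosome 10 from 130323524 to 130327440 (0.505) and on chromosome 3 from 184866295 to 184871232 (0.506). The last of these had 160, 158 and 250 FPKM in WT and 67.4, 65.4 and 79.7 FPKM in o11, so loci on either side of the threshold look alike.

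The fold of a locus differed between the 3 pairs by a median of 1.61 times, from 1.01 to 11.4 times. For 20 loci the 3 pairs lay within 1.5 times of each other and for 5 they were more than 3 times apart. The median fold over loci was 3.33 in the replicate 1 pair, 3.33 in the replicate 2 pair and 4.03 in the replicate 3 pair, beside 1.04, 1.04 and 1.06 over all loci expressed in WT. Of the 49 loci with a fold in every pair, the replicate 3 pair had the highest fold at 34, the replicate 1 pair at 8 and the replicate 2 pair at 7. The same count over all expressed loci is not given, and the rule used these values, so nothing is read from it. The replicate 1 pair, listed with other tools, and the replicate 2 pair thus had the same median. For the sum over the 50 loci the pairs stood at 3.11-fold, 3.35-fold and 4.6-fold.

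**Figure D2:**
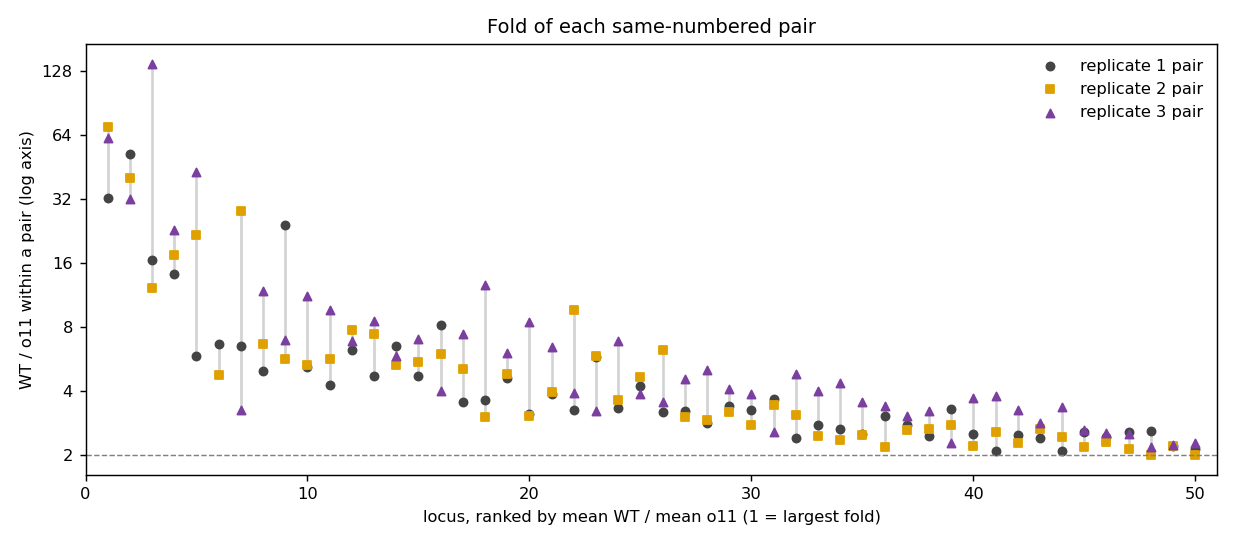
Ratio of WT to o11 FPKM within each same-numbered pair (log axis) for the 50 halved loci in the order of the plot of levels, with grey lines from the lowest to the highest pair. The replicate 3 pair is the highest at 34 of 49 loci, by values that the rule used, and the pairs spread most among the loci of large fold.

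To have a measure that the choice did not use, the same thresholds were applied to the libraries of only 2 replicate numbers, and the pair of the remaining number was read. Chosen without replicate 1, 116 loci qualified, and in the replicate 1 pair 104 of them (89.7%) were lower in o11 and 92 (79.3%) were at most 0.5 of WT. Among the 15006 loci that reached 4 FPKM in WT replicate 1, 55.2% were lower in that pair and 2.35% at most 0.5 of WT. Chosen without replicate 2, 83 of 84 loci (98.8%) were lower in the replicate 2 pair and 75 (89.3%) at most 0.5 of WT, against 56.7% and 2.81% of 15769 loci. Chosen without replicate 3, 122 of 135 loci (90.4%) were lower in the replicate 3 pair and 102 (75.6%) at most 0.5 of WT, against 57.5% and 4.07% of 15024 loci. Compared instead with the loci at 4 FPKM or more in both other WT libraries, of which 2.03%, 2.0% and 3.57% were at most 0.5 of WT in the replicate 1, 2 and 3 pairs, the distance was similar. The pair left out thus shared the direction at most chosen loci, and 10, 1 and 12 of the chosen loci were higher in o11 there. The 50 loci are contained in each of the 3 choices, and no test was run on these shares.

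**Figure D3:**
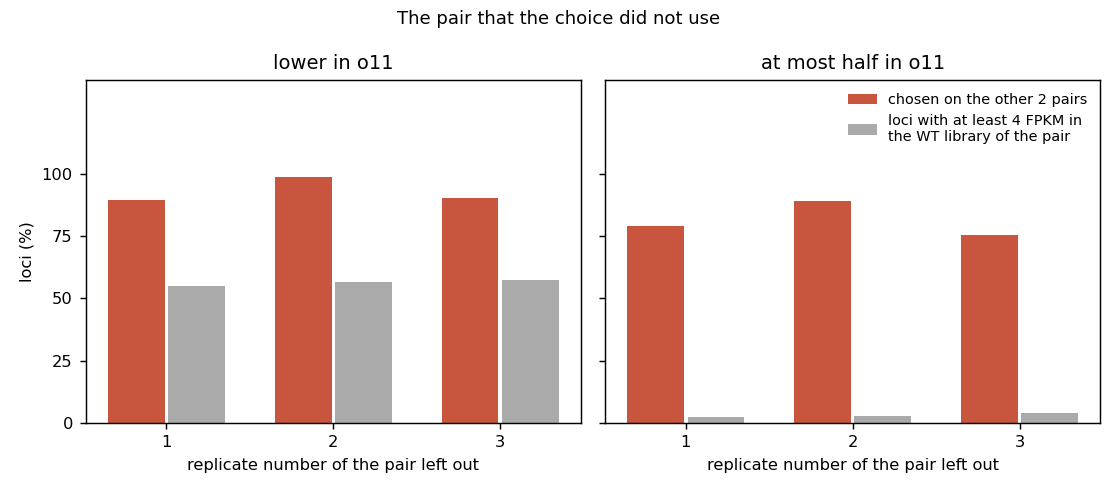
Share of loci (%) lower in o11 (left) and at most 0.5 of WT in o11 (right) in the same-numbered pair that was left out of the choice. Red bars are loci chosen on the other pairs (116, 84 and 135 loci) and grey bars all loci with at least 4 FPKM in the WT library of that pair. At most 0.5 of WT were 75.6% to 89.3% of chosen loci, against 2.35% to 4.07%.

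WT replicate 3 stood out among the levels. It was the highest WT library at 39 of the 50 loci (78.0%), against 46.1% of all loci expressed in WT. At 16 of the 50 (32%) it was at least 1.5 times both other WT libraries, against 7.74%. In o11, replicate 3 was the highest library at 17 of the 50 (34%), against 47.2%. The rule names no library, but it sets a floor for WT and a ceiling for o11. It thus keeps out loci where a WT library is low or an o11 library is high. Replicate 3 differed most, with 4.54% of tested loci higher and 7.25% lower in limma at an adjusted p of 0.05. For replicates 1 and 2 at most 0.00896% passed in either direction. The rule can thus favour loci with replicate 3 high in WT or low in o11, so nothing is read from these shares or the medians that follow. Relative to the mean of replicates 1 and 2, replicate 3 was higher by a median of 0.37 on the log2 scale in WT and differed by a median of -0.02 in o11, where all expressed loci had 0.10 and 0.07. Whether the genotypes differ in this shift was not tested.

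In a fit with genotype and a term for replicate 3 against replicates 1 and 2, 2 of the 50 loci passed as higher in replicate 3 in limma, where 4.54% of tested loci did. At an unadjusted p under 0.05 in limma, 9 of the 50 were higher, beside 3724 of all 22314 tested loci. As lower, 0 of the 50 passed in limma, where 7.25% of tested loci did. At an unadjusted p under 0.05 in limma, 0 of the 50 were lower, beside 3453 of the 22314. These values are the ones the rule used, and its thresholds limit how low a WT library can be, so nothing is read from either count. Of both loci that passed, the first was the chromosome 1 locus from 209401525, higher by 0.86 on the log2 scale (limma adjusted p = 0.0137). The second lay on chromosome 7 from 174332860 to 174334597, higher by 0.74 (limma adjusted p = 0.0264). It had 14.0, 15.1 and 26.6 FPKM in WT and 2.25, 1.95 and 3.84 FPKM in o11, and both genotypes were highest in replicate 3. Without WT replicate 3, 0 of the 50 loci passed as higher in limma, where 0.0403% of tested loci did. Calls over all loci in both directions together fell from 2629 to 145 there. At an unadjusted p under 0.05 in limma, 3 of the 50 were higher there, beside 1606 of the 22314. For a term for replicate 1 in place of replicate 3, 0 of the 50 passed in limma, where 0.00896% of tested loci passed as lower. At an unadjusted p under 0.05 in limma, 4 of the 50 were lower, beside 3239 of the 22314.

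**Figure D4:**
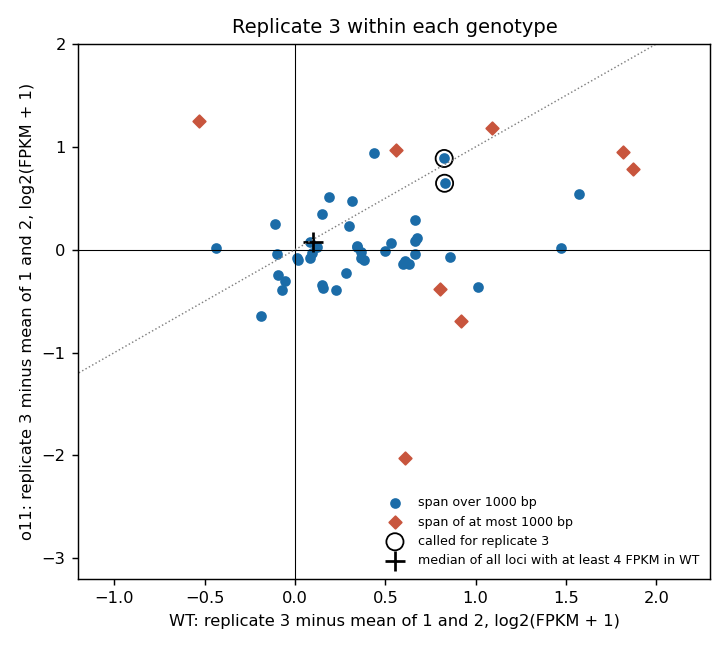
Replicate 3 minus the mean of replicates 1 and 2 on the log2(FPKM + 1) scale in WT (x axis) and o11 (y axis) for the 50 halved loci, with diamonds for spans of at most 1000 bp, circles around both loci called for replicate 3, a dotted line where both shifts are equal and a cross at the median of all loci expressed in WT. Most points lie right of 0, with a median of 0.37 in WT, and around 0 in o11.

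Among the 50 loci, the span of an interval went with the fold and with the spread. Spans of the 50 loci ran from 312 to 14837 bp with a median of 3774 bp, against 4340 bp for all loci expressed in WT. Spans of at most 1000 bp were found at 8 of the 50 (16%), against 5.45%. These 8 short loci had ratios of 4.6 to 20.03 with a median of 9.01, and their highest WT library exceeded the lowest by a median of 2.69 times. The 31 loci over 3000 bp had a median ratio of 3.09, and their WT libraries differed by a median of 1.37 times. Over all loci expressed in WT the same spread was 2.34 times for short spans and 1.35 times over 3000 bp, so short loci were more variable whether halved or not. The rule sets the highest o11 value against the lowest WT value, so a more variable locus passes only with a larger ratio of means. The higher ratios of short loci are thus at least partly set by the rule, and no link of span to the fall is read from them. The locus with the highest ratio, on chromosome 8, was an exception among the long ones with 3213 bp.

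Of the 50 intervals, 2 were shared with another entry of the files, and reads may be divided between such entries in ways the sources do not describe. The other entry at chromosome 5 from 2284054 to 2290332 was at most 0.530 FPKM in any library, so nearly all signal there belonged to the halved entry. At chromosome 9 from 26831058 to 26839136 the halved entry had 40.4, 43.2 and 66.8 FPKM in WT and 12.4, 15.5 and 17.2 FPKM in o11. The other entry of that interval had 11, 11.2 and 16.4 FPKM in WT and 12.7, 11.8 and 15.2 FPKM in o11, with overlapping groups. At this interval the fall was thus seen in one entry and not in its partner.

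The 50 loci lay on 9 of the 10 chromosomes. Chromosome 2 held 11 (0.69% of its loci expressed in WT), chromosome 5 held 9 (0.517%), chromosome 1 held 7 (0.315%) and chromosome 3 held 6 (0.405%). Chromosomes 9 and 10 held 4 each and chromosomes 4, 7 and 8 held 3 each, while 0 of the 1162 loci expressed in WT on chromosome 6 qualified. On chromosome 2 between 30 and 110 Mb, 5 of 296 expressed loci (1.69%) were halved, against 0.369% of all loci expressed in WT. The nearly lost locus from 57736223 was among these 5 loci. Their ratios of means, in order of start, were 4.39, 5.96, 9.91 (5.57 without the replicate 3 pair, with its 0), 26.5 and 2.79. No test was run on these counts.

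No pair of halved loci lay within 200 kb of each other. The closest neighbours were 0.608 Mb apart on chromosome 5, from 1676247 and from 2284054, and the median distance to the nearest other halved locus was 12.8 Mb. Of the 50 loci, 9 lay within 3 Mb of another. These distances were not compared with those between expressed loci. The middle 50% of a chromosome, from 25% to 75% of its length, held 17 of the 50 (34%), against 31.8% of expressed loci. Within 1 Mb on either side the 50 loci had a median of 36 other loci, from 6 to 113, against 39 for expressed loci. The gap to the nearest other locus had a median of 8485 bp, against 5632 bp.

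Loci next to the halved ones were not chosen by their values and could be tested. Within 100 kb of a halved locus lay 232 other loci, of which 161 were tested, next to 42 of the 50. Their median change was 0.00 on the log2 scale, as for all tested loci, and 81 of the 161 were below 0. In limma 1 of the 161 fell (0.621%, against 0.273% of all tested loci) and 0 rose (against 0.52%). At an unadjusted p under 0.05 in limma were 18 of the 161 (11.2%, against 14.9% of all tested loci), 12 of them lower. With the replicate block 15 fell and 15 rose, 9.32% each, against 9.33% and 9.83% of all tested loci. The shares of neighbours called were therefore near the background in both directions.

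The neighbour that fell in both fits lay on chromosome 3 from 1552179 to 1556524, at a distance of 6.58 kb between starts from the halved locus from 1545604 to 1548842. It had 43.3, 37.5 and 36.9 FPKM in WT and 18.7, 18.3 and 17.9 FPKM in o11, without overlap (log2 change -1.05, SE 0.13, limma adjusted p = 0.0378, and 0.00496 with the block). Its highest o11 value was 0.508 of its lowest WT value, so it missed the threshold narrowly. The halved locus beside it had 6.69, 5.61 and 5.85 FPKM in WT and 2.17, 2.55 and 1.72 FPKM in o11. Within 100 kb of the same locus, from 1481117 to 1482897, a locus went the other way, with 34.5, 58.7 and 95.2 FPKM in WT and 157, 233 and 279 FPKM in o11. It rose with the block (log2 change 1.89, limma adjusted p = 0.00399) and not without it (limma adjusted p = 0.0952). The call of the falling neighbour without the block was lost when any 1 library was left out, at limma adjusted p from 0.0901 to 0.232, while its log2 change stayed between -1.1 and -0.983.

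**Figure D5:**
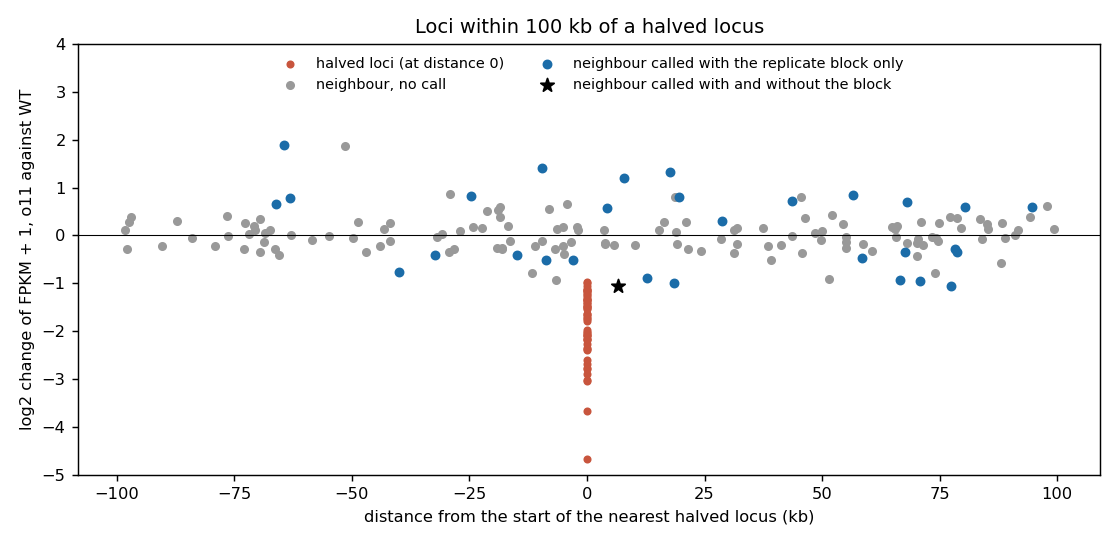
Log2 change of FPKM + 1 in o11 against WT for the 161 tested loci within 100 kb of a halved locus, by distance between starts (kb), with the 50 halved loci at 0. Neighbours called with the replicate block lie on both sides of 0 (15 lower and 15 higher), and the star is the chromosome 3 neighbour that fell in both fits.

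The rule chose the halved loci for their falls, so a smaller fall at a neighbour than at the halved locus is largely set by it. With 0 halved loci within 200 kb of another, leaving halved loci out removed none from the neighbours. The following neighbour called with the block is an example only, and others called with it fell by more. On chromosome 5 the locus from 49926492 to 49928679 lay 3.05 kb before the halved locus from 49929541 to 49930083 and was far more abundant. It had 991, 1271 and 1317 FPKM in WT and 630, 821 and 1092 FPKM in o11, with overlapping groups, and fell with the block by 0.52 on the log2 scale (limma adjusted p = 0.0391, and 0.494 without the block). The halved locus beside it had 30.8, 41.9 and 53.5 FPKM in WT and 9.47, 4.34 and 13.6 FPKM in o11.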

How the data were processed

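Kernel RNA of 3 WT and 3 o11 libraries was compared. The authors deposited FPKM values, so named in the file headers, 1 for each locus in each library. Replicate 1 carries Bowtie 0.12.2 in the submitters' processing notes and replicates 2 and 3 carry TopHat and Cufflinks, all with B73 RefGen_v3. The annotation, strand setting and read length are not given in the sources used here. Starts as deposited count from 0 (21 scaffold entries start at 0). The reference table at hand covers another build, so no gene names or sequences are given.

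Loci reaching 1 FPKM in 3 or more of the 6 libraries (22314) entered limma 3.58.1 (R 4.3.3) on the log2(FPKM + 1) scale, with variances moderated along the mean and Benjamini-Hochberg adjustment over all tested loci (threshold 0.05); changes on this scale understate those of low loci. The fit with genotype alone was checked on simulated data with independent libraries, and the fits with the block or a replicate term were not. Deviations of same-numbered libraries from their genotype means correlated at 0.747, 0.674 and 0.756 over loci, so numbers were taken to pair the libraries, from the data and not from the labels. A shift of replicate 3 shared by both genotypes would by itself raise all 3 values. Libraries of unlike number were not compared, so these values cannot show that replicates 1 and 2 each pair by number. Relative depth came from loci under 0.3 FPKM in WT replicate 1, within 0.04 on the log2 scale. The loci, lists and alternatives were chosen with earlier results of these data known. Loci named are those nearly lost, the 10 with the highest WT mean, the 10 with the largest ratio, the 3 on either side of the threshold and called neighbours; others named were chosen after their values were seen. Both loci that share an interval, both called for replicate 3 and 2 neighbours called with the block belong to the latter.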

Additional observations from a re-analysis of the deposited data

How the results depend on the processing

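The 177 loci called in o11 against WT became 4276 with the replicate block, in which the same-numbered libraries share a term. They became 430 with a term for replicate 1, 93 with no filter on low values, 0 in the replicate 2 and 3 libraries alone (995 lower and 1224 higher at an unadjusted p under 0.05 in limma) and 476 there with the block. Leaving out 1 library gave 2 to 14. With no filter, 17 of the 50 halved loci passed as lower in limma, where 0.0918% of all 32666 loci did. With the block in the replicate 2 and 3 libraries alone 36 passed, where 0.775% of tested loci did. The rule used the same values, so nothing is read from either count.

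The rule took 33 loci with a WT minimum of 8 FPKM, 24 with a ratio of at most 0.4, 116 in the replicate 2 and 3 libraries alone and 61 to 93 with 1 library left out. WT replicates 1 and 3 and o11 replicate 3 gave 92, 93 and 87, so each of these libraries alone kept many loci out. Upper-quartile scaling took 42 loci, 40 of them among the 50, and the reverse rule then took 170. Loci nearly lost numbered 7 with a limit of 2 FPKM. The median change of the 50 loci was -2.03 with a pseudocount of 0.1, and the other settings run for it stayed within the spread between pairs.

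Neighbours called rose from 1 to 30 with the block and 4 with it in the replicate 2 and 3 libraries alone, and 0 were left in limma without any 1 library. At an unadjusted p under 0.05 in limma, 11 to 22 neighbours were then left (6.83% to 13.7%, against 9.27% to 14.6% of all tested loci). Loci called for replicate 3 were 2629, between 145 and 3281 without 1 library (145 without WT replicate 3 and 426, 1206 and 1267 without o11 replicates 3, 1 and 2), and 2 or 0 for a term for replicate 1 or 2 in its place (in limma, 3239 lower and 1177 higher at an unadjusted p under 0.05 for replicate 1, and 340 and 986 for replicate 2). These terms set 2 libraries against 4 as well. Both terms, the rule in the replicate 2 and 3 libraries alone and the block there were chosen after seeing the data. Calls that the block changed are given beside their results, and it changed no other. Apart from fewer libraries or fewer loci, the cause of these shifts was not tested. Fragment counts are unknown, so the precision of values under 1 FPKM is unknown too.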
